A study of Mus musculus with 15 samples.

Results

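The comparison described here set mouse bone marrow derived macrophages (BMDMs) exposed to interferon gamma (IFN-γ) against untreated BMDMs, across the whole transcriptome. Its libraries were chosen by treatment, as given in the sample titles and the names of the count table's columns: 3 IFN-γ libraries and 3 control libraries, 6 of the 15 in the study. BMDMs are macrophages grown in a dish from marrow precursors with macrophage colony-stimulating factor (M-CSF), the growth factor that macrophages depend on. All 6 cultures came from the femurs and tibias of mice aged 8 to 10 weeks and were kept for 7 days in RPMI medium with 10% fetal calf serum and 10 ng/ml recombinant mouse M-CSF. The IFN-γ group was then given 10 ng/ml of IFN-γ, a treatment that the submitters name M1 polarization, and the group labelled Control has a dash where the others list an agent and is called untreated here. The sources used here do not give the strain, the sex, how many animals were used or how long the exposure lasted. No label says whether the 3 libraries of a group are from different animals, and the p-values therefore reflect only library-to-library spread, which may be technical. The other 9 libraries were 3 of BMDMs given interleukin 4 (IL-4, 10 ng/ml) and 3 each given heme-albumin at 200 and 400 µM, and they served to estimate the spread and, for IL-4, one side comparison.

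IFN-γ is a cytokine made mainly by T cells and natural killer cells. It binds a receptor of the chains IFNGR1 and IFNGR2, whose kinases JAK1 and JAK2 pass the signal on to the gamma-activated site (GAS) in target promoters. Targets include IRF1, a transcription factor of the interferon-stimulated response element (ISRE), and CIITA, the coactivator that switches on MHC class II genes, and in macrophages the pathway is known for arming antigen presentation, nitric oxide production and GTPases that attack vacuoles of intracellular pathogens.

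The GAS and ISRE letters could be read in the promoters of several of the genes that changed most. RefSeq promoter sequences (build GRCm38.p6, 250 bases before to 50 bases after the annotated start, 32851 promoters) were searched on both strands for the GAS letters (TTC, any 3 bases, GAA) and the ISRE letters (GAAA, any 2 bases, GAAA). The sequences below are the 120 bases just before the start, 5′ to 3′ on the strand of the gene, with matches in capitals. They are shown because Irf1 is the first relay of the response and because the guanylate-binding proteins (Gbp genes) and immunity-related GTPases (Igtp, Irgm2, Tgtp1, Tgtp2) hold some of the largest rises. Not every gene of these families is shown, and each promoter shown holds a match. Where a gene had more than 1 promoter, the promoter with the most matches was taken.
Irf1 (chr11:53769894-53770013, plus strand): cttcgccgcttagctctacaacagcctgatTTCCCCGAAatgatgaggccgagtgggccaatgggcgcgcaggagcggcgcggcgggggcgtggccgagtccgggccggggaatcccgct
Gbp2 (chr3:142620543-142620662, plus strand): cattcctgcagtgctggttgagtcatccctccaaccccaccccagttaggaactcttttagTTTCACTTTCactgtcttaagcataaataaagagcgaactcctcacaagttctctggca
Gbp3 (chr3:142559924-142560043, plus strand): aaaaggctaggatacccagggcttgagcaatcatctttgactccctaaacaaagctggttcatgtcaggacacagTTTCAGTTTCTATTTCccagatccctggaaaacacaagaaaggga
Gbp7 (chr3:142530216-142530335, plus strand): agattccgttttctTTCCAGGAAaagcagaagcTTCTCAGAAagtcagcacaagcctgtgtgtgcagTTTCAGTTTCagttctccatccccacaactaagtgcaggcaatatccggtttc
Igtp (chr11:58199436-58199555, plus strand): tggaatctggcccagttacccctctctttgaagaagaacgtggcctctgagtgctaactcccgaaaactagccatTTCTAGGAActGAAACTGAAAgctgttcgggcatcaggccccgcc
Irgm2 (chr11:58214857-58214976, plus strand): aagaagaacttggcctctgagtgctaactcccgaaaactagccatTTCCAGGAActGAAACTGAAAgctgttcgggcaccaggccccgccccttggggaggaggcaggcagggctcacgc
Tgtp1 (chr11:48992247-48992366, minus strand): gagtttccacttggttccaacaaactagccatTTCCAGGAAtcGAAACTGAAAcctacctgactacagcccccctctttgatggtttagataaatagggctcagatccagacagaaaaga
Tgtp2 (chr11:49064213-49064332, minus strand): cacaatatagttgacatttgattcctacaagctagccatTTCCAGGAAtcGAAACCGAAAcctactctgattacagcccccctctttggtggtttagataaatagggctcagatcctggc
Irf1 held 1 GAS match and no ISRE match in this window. In Gbp3 the capitals cover 2 ISRE matches that overlap, and Gbp7 held GAS matches as well as an ISRE match. In Igtp, Irgm2, Tgtp1 and Tgtp2 a GAS match was followed, after 2 bases, by an ISRE match. That arrangement occurred in 5 of the 32851 promoters (0.0152%), and the fifth was the promoter of Gm12185, a gene that overlaps Tgtp1. These genes are related copies, so their upstream letters are not independent of each other.

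Over all promoters, 11.3% held a GAS or an ISRE match, and over the promoters of the genes tested 9.84% did. Among promoters of genes that rose the share was 12.7% (372 of 2925), and among those of genes that rose at least 8-fold it was 28.3% (68 of 240). Promoters of genes that fell held a match in 8.3% (187 of 2253). All 5 Gbp genes with a promoter in the table held an ISRE match, as did 6 of 7 immunity-related GTPases. Gm12250, among these GTPases with a match, had no row in the count table and was not tested. Of 10 MHC class II genes with a promoter 1 held a match, a GAS in H2-DMb2. A match is a description of letters, not a measured binding site.

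Total counts ran from 8427352 to 15252357 in the control libraries and from 16398891 to 22494832 in the IFN-γ libraries, and levels below are given as CPM, the count of a gene scaled to a library total of 1000000. The ratio of chi-square to its degrees of freedom over genes was 7.12 to 13.7 between control libraries, 44.7 between IFN-γ 1 and 2, and 130 and 135 between these and IFN-γ 3. IFN-γ 3 thus stood apart: of 11022 genes at 1 CPM or more in the IFN-γ group, 71 were at least 4-fold above and 247 at least 4-fold below both other IFN-γ libraries, against at most 13 in either direction for any of the other 5. Its scaling factor (trimmed mean of M-values, TMM) was 0.886, against 1.02 and 1.00 for IFN-γ 1 and 2 and 1.08 to 1.12 for the controls, so a gene at equal CPM in both groups is fitted as slightly higher with IFN-γ. The 4-fold gaps of this paragraph and those given below for IFN-γ 3 were taken on TMM-scaled log2 CPM with a prior count of 0.5. Several results that rest on that library are given with and without it.

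The 3 genes that mark the response identified the libraries as labelled. Irf1 (chr11:53770014-53778374, plus strand, GRCm38, protein coding) stood at 55.3, 61.8 and 48.8 CPM in control 1 to 3 and at 1138, 1415 and 1369 CPM in IFN-γ 1 to 3, a log2 change of 4.76 ± 0.15 (edgeR adjusted p = 2.67e-10). Every IFN-γ library was far above every control, and within the 3 date pairs of the column names the log2 difference was 4.50, 4.63 and 5.13. Ciita (chr16:10480059-10528418, plus strand) went from 0.646, 0.983 and 0.949 CPM to 220.5, 237 and 203 CPM, a log2 change of 8.19 ± 0.34 (edgeR adjusted p = 1.41e-09), with no overlap and little spread between the 3 treated cultures. In the annotation Irf1 overlaps Gm17334 and Ciita overlaps Dexi. Nos2 (chr11:78920787-78960254, plus strand), the inducible nitric oxide synthase, was at 0.143, 0.590 and 0.119 CPM in controls and at 146, 78.4 and 487 CPM with IFN-γ, a log2 change of 9.76 ± 0.93 (edgeR adjusted p = 9.61e-06). Its 3 treated libraries differed among themselves, with IFN-γ 3 the highest, and without that library the log2 change was 8.54 (edgeR adjusted p = 4.39e-08). Here and below ± on a log2 change is its standard error, and changes are called at a Benjamini-Hochberg adjusted p under 0.05 from edgeR's quasi-likelihood test over all genes tested.

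**Figure D1:**
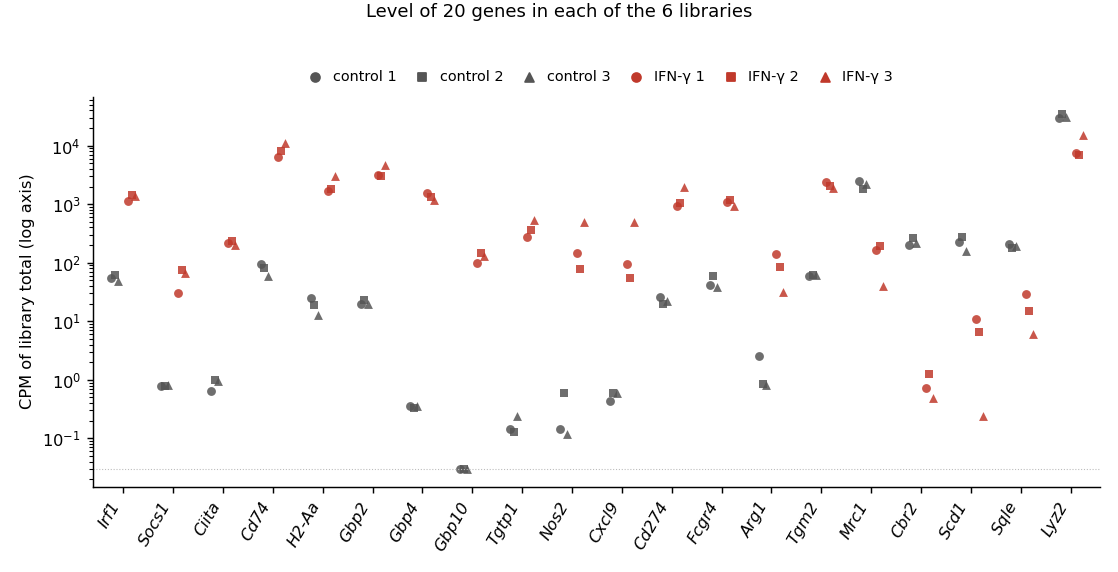
CPM (log axis) of 20 genes named in the text in each of the 6 libraries; grey marks are controls, red marks IFN-γ, and the shape gives the replicate number. Values of 0 are drawn on the dotted line at 0.03 CPM; Irf1 lay between 48.8 and 61.8 CPM in controls and far higher in each IFN-γ library, and Mrc1, Cbr2, Scd1, Sqle and Lyz2 were lower in every IFN-γ library.

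Of 11883 genes tested, 2866 (24.1%) were higher and 2323 (19.5%) lower with IFN-γ, 5189 (43.7%) in all. With so large a share called, a list of genes is read below against these shares. A change of at least 2-fold was reached by 1177 of the higher and 888 of the lower genes, and of at least 8-fold by 286 and 112, so the large changes were mostly rises. The 3 IFN-γ libraries lay above the 3 controls without overlap for 3249 genes (27.3%) and below them for 2913 (24.5%). In all 3 date pairs 2828 of the 2866 higher genes and 2315 of the 2323 lower genes had the sign of their call, beside 8293 of all 11883 genes (69.8%) with 1 sign in the 3 pairs. The split between directions depended on scaling: 55.2% of called genes were higher with TMM factors and 42.4% (2232 higher, 3036 lower) with upper-quartile factors. The median log2 change over all genes tested was 0.05 with the first and -0.06 with the second, a shift of all genes of 0.11, so small changes of less than that size should be read relative to it. In bulk libraries, fewer cells of a type and less RNA per cell cannot be told apart.

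**Figure D2:**
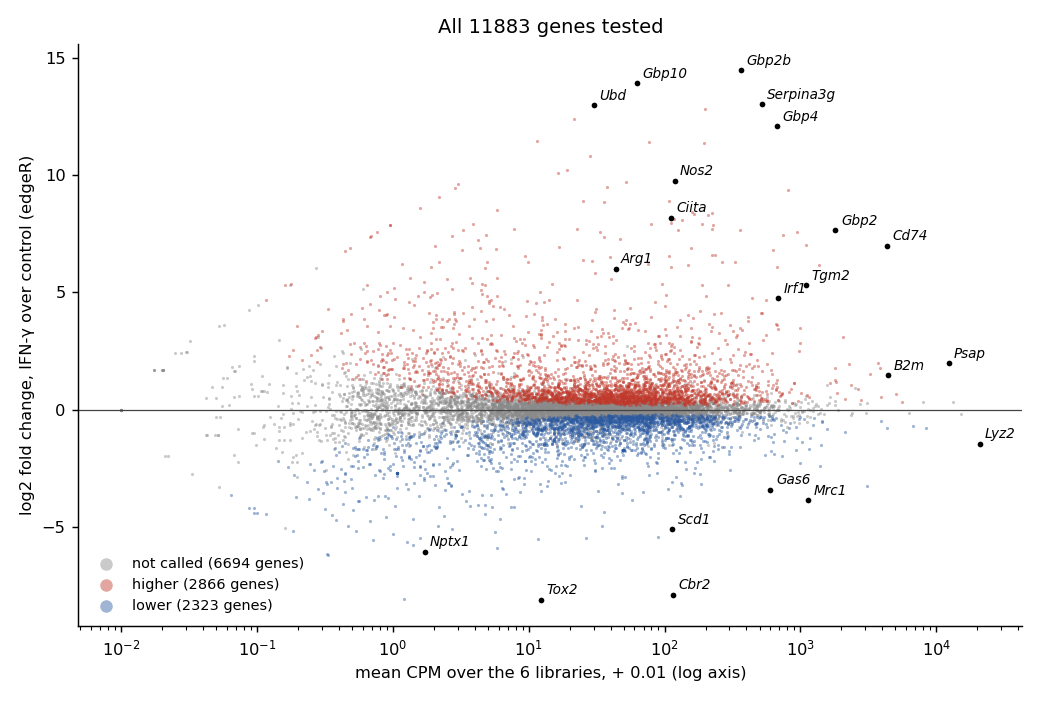
Fitted log2 fold change of all 11883 genes tested (IFN-γ over control) against their mean CPM over the 6 libraries plus 0.01 (log axis), with 2866 higher genes in red, 2323 lower genes in blue and the others in grey. Fitted changes of genes with no counts in controls, such as Gbp10, depend on the prior count; the upper arm reaches beyond 14 and the lower arm to -8.10 (Tox2).

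The 15 largest rises included 5 interferon GTPases and 2 serpins with 13 counts or fewer in the controls together. Gbp2b, a guanylate-binding protein, had 1 count in all control libraries together and 41882 with IFN-γ, a CPM ratio of 28336 with a 95% interval of 5085.5 to 1119240 that covers counting error only. Gbp10 and Gbp11, of the same family, had 0 counts in the controls and stood at 97.1, 144 and 132 CPM and 58.8, 94.7 and 83.8 CPM, at least 1588-fold and 1012-fold higher taking 3 counts over the group as the floor. Serpina3g and Serpina3f, inhibitors of proteases, rose from 0.287, 0 and 0.119 to 971, 902 and 1241 CPM and from 0, 0.0656 and 0.119 to 426, 424 and 347 CPM. For each of these 4 genes the 3 treated cultures lay within 2-fold of each other. Tlr12, a receptor for the profilin of Toxoplasma and related parasites, was at 0 in controls and at 46.9, 40.6 and 41.3 CPM, at least 535-fold higher. Ubd, the ubiquitin-like modifier FAT10, was also at 0 in controls, but its treated values were 7.06, 2.71 and 170.2 CPM, so that 1 library carried most of its counts. Its call held without IFN-γ 3 (edgeR adjusted p = 0.00205) and was lost when any 1 of the controls was left out and with the 6 libraries alone (edgeR adjusted p = 0.0631). The remaining members were Gbp4 and Tgtp1 (below), Ocstamp (a membrane protein of osteoclast fusion), Klrk1 (the receptor NKG2D), Clec9a (a receptor for damaged cells), Kynu (kynureninase, of tryptophan breakdown), Nos2 and Dnase1l3 (a secreted DNase). Klrk1 was at 0.0717, 0 and 0 CPM in controls and 70.4, 60.3 and 39.9 CPM with IFN-γ, and Clec9a at 0, 0 and 0.119 and 41.3, 50.6 and 23.1 CPM, each with 1 control count. Ocstamp reached 204, 235 and 20.3 CPM, with IFN-γ 3 the lowest, and Dnase1l3 90.6, 139 and 81.0 CPM.

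The 15 largest falls included genes that mark resident or resting macrophages. Tox2, a nuclear HMG-box protein, went from 19.2, 29.0 and 25.9 CPM to 0, 0.133 and 0.0610 CPM, a log2 change of -8.10 ± 0.45 (edgeR adjusted p = 1.84e-08). Cbr2, a carbonyl reductase typical of resident-type macrophages, went from 202, 264 and 219.9 to 0.718, 1.24 and 0.488 CPM, a log2 change of -7.88 ± 0.80 (edgeR adjusted p = 5.30e-06). The IFN-γ libraries together held 4 counts of Tox2 and 48 of Cbr2. Fcrls, an Fc receptor-like protein of tissue macrophages and microglia, fell from 134, 211 and 179 to 2.93, 7.34 and 0.305 CPM. Il1rl1, the receptor for interleukin 33, fell from 11.8, 10.4 and 10.8 to 0.239, 0.311 and 0.183 CPM, and Rasgrp3, an activator of Ras, from 45.1, 59.9 and 49.8 to 0.599, 2.13 and 0.122 CPM. Scd1, the desaturase that makes oleate, dropped from 231, 276 and 160.0 to 10.9, 6.53 and 0.244 CPM, a log2 change of -5.09 ± 0.64 (edgeR adjusted p = 3.63e-05). Nes, Cmah, Nptx1, Col23a1, Fbln5, Ankrd29, Rgs7bp, Smpd3 and Smim10l2a completed the 15, and all of these started at 31 CPM or less. Smim10l2a was the single gene at 0 counts in every IFN-γ library and at 1 CPM or more in each control, against 10 genes with the reverse pattern.

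Among genes that rose at least 2-fold, the 10 most abundant per length of exon with IFN-γ were B2m, Psap, Cd74, Ctss, Ly6a, Prdx1, H2-D1, Gbp2, H2-K1 and Itm2b. B2m, the light chain of MHC class I, went from 3032 to 7269 RPKM (CPM divided by the exon length in kilobases), Psap, the precursor of the saposins that help lysosomal lipid breakdown, from 2026 to 6968 RPKM, and Cd74, the invariant chain of MHC class II, from 46.5 to 5117 RPKM. With IFN-γ, Cd74 thus ranked just below Psap per length. Gbp2 moved from 8.27 to 1431 RPKM and Ly6a, the surface protein Sca-1, from 35.1 to 2227 RPKM. Ctss, the protease that trims the invariant chain, and Prdx1, a peroxidase, started high and rose by 1.99 ± 0.39 and 1.77 ± 0.40 on the log2 scale (edgeR adjusted p = 0.00125 and 0.00305).

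Of the 11 genes of the receptor and its relay, 8 were higher and 1 lower, with a median log2 change of 0.56, beside 24.1% higher, 19.5% lower and a median of 0.05 over all genes. The receptor chains themselves were not called: Ifngr1 was at 212, 246 and 215 CPM in controls and 154, 181 and 182 CPM with IFN-γ, and Ifngr2 at 144, 144 and 156 and 114, 116 and 181 CPM (log2 changes of -0.18 ± 0.17 and 0.10 ± 0.18, edgeR adjusted p = 0.401 and 0.668). Jak2 rose by 1.75 ± 0.17, Stat3 by 1.73 ± 0.10 and Stat2 by 1.57 ± 0.13 on the log2 scale (edgeR adjusted p = 4.29e-06, 3.23e-08 and 7.08e-07). Jak1, the other kinase, rose by 0.46 ± 0.12 (edgeR adjusted p = 0.00753), a call that was lost when the 6 libraries were fitted alone, with or without the block. Ifnar1, a chain of the type I interferon receptor, was lower with 129, 127 and 129 CPM against 206, 201 and 212 CPM, while its partner Ifnar2 was higher by 0.56 ± 0.13. The call of Ifnar1 failed without control 3, IFN-γ 1 or IFN-γ 2, and that of Ifnar2 with the 6 libraries alone.

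Feedback inhibitors rose with the relay: 10 of 11 were higher and none lower, with a median of 1.5 (1.31 with genes at 0 counts in controls set to their bound). Over the alternative settings 8 to 10 were higher. Socs2, at most 0.299 CPM in any of the 6 libraries, and Pias1, with a log2 change of 0.22 ± 0.07, each lost the call in several of them. Socs1, the inhibitor that binds JAK2, went from 0.789, 0.787 and 0.831 CPM to 30.6, 74.5 and 66.9 CPM, a log2 change of 6.36 ± 0.47 (edgeR adjusted p = 2.52e-07). Socs3, an inhibitor of cytokine receptors that signal through STAT3, rose from 1.79, 3.08 and 2.02 to 18.6, 20.6 and 47.0 CPM. IFN-γ 1 was the lowest treated library for both. The phosphatases Ptpn1, Ptpn2 and Ptpn6, which remove phosphate from JAKs and STATs, rose by 1.496, 0.93 and 0.92 on the log2 scale, and Ptpn11 was not called (0.14 ± 0.09). Usp18, which blocks the type I interferon receptor, went from 22.8, 39.5 and 24.8 to 95.8, 130.03 and 70.8 CPM (log2 1.93 ± 0.31, edgeR adjusted p = 2.48e-04).

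Of 8 interferon regulatory factors (IRFs) tested, 6 were higher, 1 lower and 1 not called. Beside Irf1, the largest rises were those of Irf7, the amplifier of type I interferon genes, from 54.6, 103 and 62.9 to 349, 635 and 1035 CPM (log2 3.41 ± 0.39, edgeR adjusted p = 1.47e-05), and of Irf8, a lineage factor of monocytes and macrophages, from 127, 143 and 136 to 532, 752 and 642 CPM (log2 2.44 ± 0.14, edgeR adjusted p = 2.14e-08). Irf2, an antagonist of Irf1, rose by 1.29 ± 0.11 and Irf5, a factor of inflammatory macrophages, by 1.22 ± 0.19. Irf4, a factor of IL-4 responses, was low and lower still with IFN-γ (2.80, 2.88 and 3.92 against 1.26, 1.47 and 0.305 CPM, log2 -1.42 ± 0.44, edgeR adjusted p = 0.0183), a call lost in the fit of the 6 libraries alone, with or without the block, and without control 3. Irf9, a partner of STAT2 in the type I complex, passed with log2 0.33 ± 0.12, edgeR adjusted p = 0.0436 and failed in 11 of the 14 alternative settings.

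All 11 guanylate-binding proteins tested were higher, with a median log2 change of 7.97. These large GTPases coat pathogen vacuoles and bacteria. Their summed level was 67.4 to 82.4 CPM in controls and 8052 to 9664 CPM with IFN-γ, and it moved by about the same amount in the 3 treated cultures. Gbp2 went from 19.4, 23.01 and 20.1 to 3192, 2986 and 4624 CPM, a log2 change of 7.64 ± 0.30 (edgeR adjusted p = 1.22e-09), and was the most abundant member per length. Gbp4 went from 0.359, 0.328 and 0.356 to 1524, 1342 and 1185 CPM, a log2 change of 12.08 ± 0.44 (edgeR adjusted p = 7.41e-10), the largest rise among members with more than 3 control counts. Gbp5, which also promotes inflammasome assembly, went from 3.37, 4.92 and 3.56 to 612, 573 and 946 CPM. Gbp3 and Gbp7, 2 of the genes whose promoters are printed above, rose by 6.29 ± 0.24 and 5.31 ± 0.22, and Gbp6, Gbp8 and Gbp9 by 8.29, 7.97 and 4.03. Gbp9 had the smallest rise, from a control level of 14.9, 24.1 and 19.0 CPM. Gbp2b was the exception to the agreement between cultures, at 921, 941 and 324 CPM, with IFN-γ 3 lowest. Gbp4, Gbp8 and Gbp9 overlap in the annotation and members resemble each other in sequence, so the division of reads among them is uncertain.

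The 9 immunity-related GTPases tested, small GTPases that disrupt vacuoles of Toxoplasma and Chlamydia, were also all higher (median 6.18), and their summed level went from 250 to 345 CPM in controls to 5827 to 6556 CPM with IFN-γ. Iigp1, an effector that polymerizes on the vacuole, went from 2.80, 3.08 and 2.25 to 1747, 1455 and 1625 CPM, a log2 change of 9.38 ± 0.35 (edgeR adjusted p = 7.41e-10). Tgtp1 and Tgtp2, effectors that are near-identical copies, went from 0.143, 0.131 and 0.237 to 278, 366 and 527 CPM and from 4.52, 8.06 and 3.44 to 433, 491 and 460.0 CPM, and reads could have been divided between them arbitrarily. The controls were not silent for the regulatory members: Irgm1 was at 100.1, 139.7 and 107 CPM and rose to 1211, 1196 and 1283 CPM, Irgm2 rose from 48.4, 61.5 and 45.7 to 478, 533 and 660.0 CPM and Igtp (Irgm3) from 33.4, 42.6 and 30.6 to 704, 826 and 988 CPM. Regulatory members keep effectors inactive on the cell's own membranes, and they had log2 changes of 3.60 to 4.76. Ifi47 rose by 3.48 ± 0.16.

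MHC class II presentation rose as a group: 11 of 13 tested genes were higher and 1 lower, with a median of 4.86. The summed level was 175 to 229.7 CPM in controls and 11044, 13157 and 19145 CPM in IFN-γ 1 to 3. H2-Aa, H2-Ab1 and H2-Eb1, the classical chains, went from 25.4, 19.1 and 12.9 to 1657, 1833 and 2993 CPM, from 12.9, 10.1 and 6.53 to 990.1, 1116 and 2334 CPM and from 18.4, 12.1 and 8.31 to 973, 1020.0 and 1762 CPM. IFN-γ 3 had the highest level of each, and control 3 the lowest. Cd74 followed the same order, with 93.5, 81.2 and 59.7 CPM in controls and 6516, 8149 and 11107.5 CPM with IFN-γ, a log2 change of 6.99 ± 0.37 (edgeR adjusted p = 1.18e-08). H2-DMa and H2-DMb1, the chains of the peptide exchanger, rose by 4.86 ± 0.22 and 3.48 ± 0.13. The chains of its inhibitor were low: H2-Oa reached 6.82, 5.56 and 21.9 CPM and H2-Ob 14.01, 20.5 and 2.74 CPM, with opposite orders among the 3 treated cultures. Of the RFX factors that recruit CIITA, Rfx5 rose by 0.76 ± 0.13, Rfxap was lower (log2 -0.54 ± 0.15) and Rfxank was not called.

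On the class I side all 12 genes tested were higher (median 2.16). Nlrc5, the coactivator of class I genes, went from 38.1, 45.1 and 37.0 to 288, 273 and 255 CPM, a log2 change of 2.95 ± 0.13 (edgeR adjusted p = 2.39e-09). The classical heavy chains H2-K1 and H2-D1 were abundant without treatment (956, 1146 and 1064 and 1609, 2122 and 1941 CPM) and rose by 1.94 ± 0.20 and 1.51 ± 0.25. The Qa-2 chains H2-Q6 and H2-Q7 started low, at 2.15, 3.74 and 1.78 and 2.08, 2.82 and 2.02 CPM, and rose by 6.53 ± 0.34 and 6.20 ± 0.36. H2-T23, the Qa-1 chain, rose by 2.97 ± 0.26. The heavy chains are close copies, so the split among them is uncertain.

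Of 13 genes of the immunoproteasome and of peptide loading, 10 were higher and 1 lower (median 1.96). The catalytic subunits Psmb8, Psmb9 and Psmb10, which replace constitutive ones, went from 111, 148 and 116 to 458, 510.0 and 486 CPM, from 48.0, 55.6 and 49.96 to 188, 241 and 229 CPM and from 48.5, 58.2 and 52.8 to 253, 312 and 312 CPM. The subunits they replace moved far less: Psmb5 rose by 0.51 ± 0.13, and the 25 constitutive proteasome genes together gave 8 higher, 0 lower and a median of 0.16. Under upper-quartile scaling 6 of those 25 were higher and 1 lower. Tap1 and Tap2, the peptide transporter, rose by 3.20 ± 0.18 and 2.79 ± 0.21, Tapbpl, an editor of bound peptides, by 3.44 ± 0.18, and Erap1, the trimming peptidase, by 1.42 ± 0.11. Of the general chaperones in the list none rose, and Canx, calnexin, was lower (-0.44 ± 0.15, edgeR adjusted p = 0.0282), a call that failed in 6 of the 14 alternative settings, among them the 6 libraries alone and leaving out control 1, control 3, IFN-γ 2 or IFN-γ 3.

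**Figure D3:**
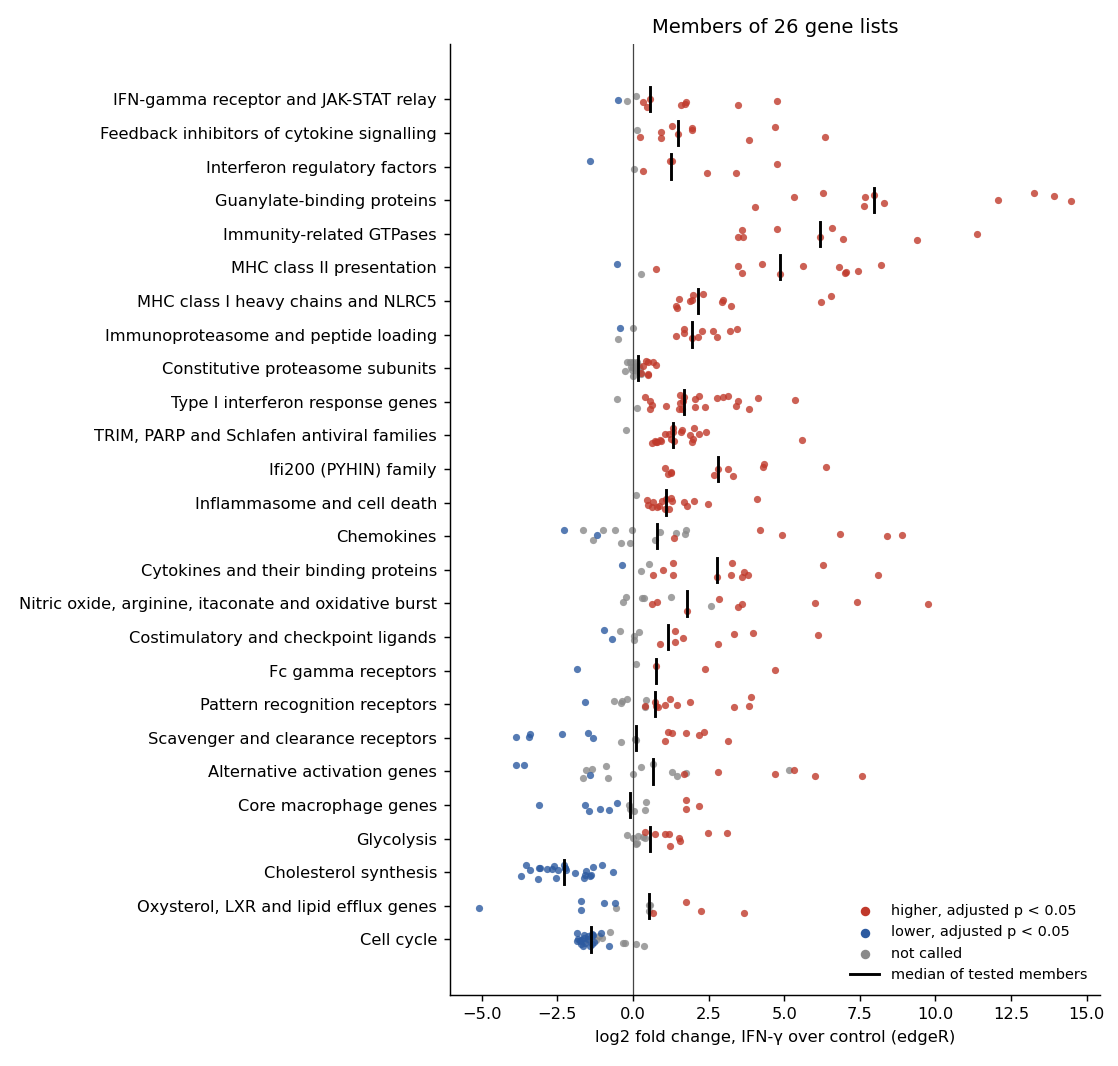
Fitted log2 fold change (IFN-γ over control) of each tested member of 26 gene lists, 1 dot a gene, red for higher, blue for lower and grey for not called at an edgeR adjusted p under 0.05; black bars are list medians. The medians run from 7.97 for guanylate-binding proteins to -2.27 for cholesterol synthesis, and fitted changes of genes at 0 counts in controls depend on the prior count.

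Genes best known from type I interferon responses were mostly higher: 23 of 25, with none lower and a median of 1.68. Their summed level went from 1317 to 1906 CPM in controls to 4715 to 6559 CPM. Ifit2, an RNA-binding antiviral protein, went from 46.9, 93.0 and 47.1 to 759.5, 874 and 1241 CPM, a log2 change of 4.14 ± 0.30 (edgeR adjusted p = 2.40e-07). Ifi44, an interferon-induced protein, rose from 4.95, 7.02 and 3.20 to 183, 195 and 182 CPM, Mx1, an antiviral GTPase, from 14.9, 25.1 and 17.6 to 239, 287 and 196 CPM and Rsad2 (viperin) from 56.3, 94.9 and 62.8 to 396, 534 and 534 CPM. In these 4 genes control 2 was the highest control, yet it lay well below every IFN-γ library. Dhx58 and Ifih1, RNA sensors of the RIG-I family, rose by 1.51 ± 0.10 and 1.54 ± 0.14. Ifnb1, a type I interferon gene named after its values were seen, had no library above 0.0445 CPM among the 6 and was not tested. All 5 genes of the ISG15 conjugation system were higher, with Isg15, the ubiquitin-like modifier, at 31.0, 49.8 and 29.4 and 146, 201 and 155 CPM and its ligase Herc6 at 40.8, 48.4 and 38.7 and 209, 214 and 229 CPM.

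Of 22 TRIM, PARP and Schlafen genes, antiviral families of ubiquitin ligases, ADP-ribosyltransferases and RNA-cleaving proteins, 21 were higher and none lower (median 1.32). Dtx3l and Parp9, ubiquitin ligase and ADP-ribosyltransferase partners whose genes overlap in the annotation, rose by 2.41 ± 0.12 and 1.96 ± 0.14. Slfn1, a Schlafen protein of immune cells, had the largest change of the group, from 1.08, 3.28 and 0.949 to 60.04, 109.7 and 68.5 CPM. The 11 Ifi200 genes tested, whose PYHIN proteins bind DNA, were all higher (median 2.82): Ifi205 went from 0.574, 0.787 and 0.712 to 37.8, 31.2 and 79.0 CPM, Ifi204 from 70.2, 104 and 68.2 to 459, 497 and 540.0 CPM and Aim2, the sensor of an inflammasome, from 42.7, 41.8 and 45.4 to 88.5, 86.7 and 65.6 CPM. The family lies in a cluster of close copies, so single members are uncertain.

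Genes of inflammasomes and cell death were higher in 17 of 18 cases and lower in none (median 1.09). Zbp1, a sensor of Z-form nucleic acid, had the largest change, from 20.8, 42.9 and 22.8 to 389, 469.7 and 449 CPM, a log2 change of 4.10 ± 0.25 (edgeR adjusted p = 4.64e-08). Casp1 and Casp4 (caspase 11), the proteases that cleave gasdermin D, went from 100.3, 110.5 and 93.1 to 378, 363 and 333 CPM and from 25.8, 23.6 and 23.7 to 111, 114 and 130.01 CPM. Ripk3 and Mlkl, kinase and executioner of necroptosis, rose by 1.18 ± 0.14 and 1.79 ± 0.13.

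Of 20 chemokines tested, 6 were higher and 2 lower, beside 24.1% higher and 19.5% lower of all genes. The 3 ligands of CXCR3, which draws in T helper 1 cells, all rose. Cxcl10 went from 21.5, 27.7 and 15.4 to 353, 245 and 438 CPM, a log2 change of 4.196 ± 0.37 (edgeR adjusted p = 1.53e-06). Cxcl9 went from 0.430, 0.590 and 0.593 to 95.5, 55.4 and 494 CPM and Cxcl11 from 0.0717, 0.0656 and 0.237 to 4.49, 7.11 and 22.4 CPM, with IFN-γ 3 several times above the other treated libraries for both (log2 changes of 8.90 and 6.84 with it, 7.24 and 5.77 without it, edgeR adjusted p = 1.68e-07 and 1.27e-04). Ccl5, an attractant of T cells and monocytes, stood at 1.29, 2.56 and 0.712 CPM in controls and 23.9, 28.1 and 1286 CPM with IFN-γ, so that the log2 change of 8.40 ± 1.52 became 4.13 (edgeR adjusted p = 1.38e-06) without IFN-γ 3. It was not called in the fit of the 6 libraries with the date pairs as a block. Ccl9 and Ccl3, ligands of CCR1, fell from 1773, 1683 and 1583 to 430.3, 386 and 109.6 CPM and from 139, 142 and 172 to 72.5, 75.7 and 29.6 CPM. Ccl2, the main attractant of monocytes, gave 589.9, 500.2 and 597 CPM in controls and 661, 799.6 and 45.3 CPM with IFN-γ and was not called with or without IFN-γ 3 (log2 -0.03 ± 0.67 and 0.51).

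Among cytokines and their binding proteins 12 of 15 tested were higher and 1 lower. Il12rb1, a receptor chain for interleukins 12 and 23, went from 1.15, 1.05 and 0.475 to 248, 335 and 123 CPM, a log2 change of 8.11 ± 0.39 (edgeR adjusted p = 5.37e-09). Il18bp, the soluble inhibitor of interleukin 18, went from 7.53, 6.69 and 9.49 to 336, 527 and 708 CPM, a log2 change of 6.28 ± 0.33 (edgeR adjusted p = 1.14e-08), while Il18 itself rose by 1.32 ± 0.14. Il27, Tnfsf10 (the death ligand TRAIL) and Tnfsf13b (the B cell factor BAFF) reached 20.4, 25.3 and 24.5 CPM, 37.4, 36.5 and 27.6 CPM and 26.7, 32.3 and 11.2 CPM from 4.39 CPM or less. Tnf rose by 0.65 ± 0.12, from 145, 125 and 133 to 194, 211 and 151 CPM. Il1b, the precursor of interleukin 1β, reached 1.98, 2.45 and 11.9 CPM, mostly in IFN-γ 3 (log2 3.24, and 1.83 without it, edgeR adjusted p = 0.00206). Il10, an anti-inflammatory cytokine, had 4.38, 3.08 and 4.63 CPM in controls and 11.3, 12.8 and 2.81 CPM with IFN-γ, groups that overlapped, and its call (edgeR adjusted p = 0.0413) failed in 8 of the 14 alternatives. Il6 and Il12b, with Il12a and Il23a (named after their values were seen), were not tested, since none exceeded 0.183 CPM in any of the 6 libraries.

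Beside Nos2, 8 further genes of the list on nitric oxide, arginine, itaconate and the oxidative burst were higher (9 of 15 in all, 0 lower). Arg1, the arginase that competes with Nos2 for arginine and a standard marker of IL-4 responses, also rose, from 2.58, 0.852 and 0.831 to 143, 83.3 and 31.6 CPM, a log2 change of 6.01 ± 0.52 (edgeR adjusted p = 1.30e-06). IFN-γ 3, the highest treated library for Nos2, was the lowest for Arg1. Slc7a2, an arginine importer, rose from 1.79, 1.11 and 0.949 to 17.7, 11.5 and 13.0 CPM and Ass1, which remakes arginine from citrulline, from 24.1, 17.8 and 22.3 to 118, 61.3 and 209 CPM. Acod1, which makes itaconate, went from 149, 127 and 108 to 1810.0, 1032 and 895 CPM (log2 3.46 ± 0.43, edgeR adjusted p = 3.38e-05). Ido1, which breaks down tryptophan, had 0 counts in controls and 0.958, 0.800 and 2.32 CPM with IFN-γ, at least 16.2-fold higher. Cybb, the catalytic subunit of the phagocyte oxidase, gave 950.2, 909 and 888 CPM in controls and 2162, 1474 and 4481 CPM with IFN-γ, a log2 change of 1.80 ± 0.37 that was 1.11 (edgeR adjusted p = 0.00273) without IFN-γ 3. Gch1, which makes the cofactor of Nos2, was not called (-0.33 ± 0.17, edgeR adjusted p = 0.126).

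Of 14 costimulatory and checkpoint ligands 8 were higher and 2 lower, beside 24.1% higher and 19.5% lower of all genes. Cd274 (PD-L1), a ligand that restrains T cells, went from 25.6, 19.4 and 22.4 to 936, 1032 and 1989 CPM, a log2 change of 6.10 ± 0.53 (edgeR adjusted p = 1.35e-06). Cd86, a ligand that costimulates them, went from 13.4, 7.47 and 12.1 to 152, 158 and 135 CPM, a log2 change of 3.95 ± 0.22 (edgeR adjusted p = 1.98e-08), whereas Cd80, which shares its receptors, was not called at 17.9, 16.8 and 17.2 and 16.6, 18.9 and 16.4 CPM (log2 0.19 ± 0.09, edgeR adjusted p = 0.102, and 0.0344 without IFN-γ 1). Cd40 rose by 1.39 ± 0.33 and Slamf7, an activating receptor, by 3.34 ± 0.53. Tnfsf9 (the ligand of 4-1BB) and Cd48 were lower, with log2 changes of -0.97 ± 0.25 and -0.69 ± 0.11.

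Fcγ receptors, which bind antibody-coated particles and immune complexes, divided. The activating receptors Fcgr4, Fcgr1 and Fcgr3 went from 42.3, 59.3 and 38.6 to 1101, 1163 and 924 CPM, from 135, 205 and 123 to 659, 828 and 630.2 CPM and from 619, 665 and 689.7 to 919, 1001 and 1013 CPM. Fcgr2b, the inhibitory receptor, fell from 186, 153 and 215 to 59.3, 47.6 and 29.6 CPM, a log2 change of -1.85 ± 0.24 (edgeR adjusted p = 5.27e-05). None of these 4 genes had overlapping groups, which was also so for 27.3% of all genes tested upward and 24.5% downward. Of 18 pattern recognition receptors and adaptors 11 were higher and 1 lower. Tlr9, a sensor of bacterial DNA, rose from 5.96, 9.83 and 6.76 to 91.0, 105 and 90.7 CPM, and the peptidoglycan sensors Nod1 and Nod2 rose by 3.35 ± 0.20 and 1.899 ± 0.19. Tlr4, the receptor for endotoxin, rose by 0.84 ± 0.14. Clec7a (dectin-1), a receptor for fungal glucans, went from 21.95, 26.2 and 23.02 to 216, 137 and 549 CPM, with IFN-γ 3 the highest (log2 3.91, and 3.02 without it).

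Scavenger and clearance receptors went both ways, 7 higher and 6 lower of 16, beside 24.1% higher and 19.5% lower of all genes. Mrc1, the mannose receptor, fell from 2447, 1793 and 2173 to 164, 194 and 39.4 CPM, a log2 change of -3.86 ± 0.64 (edgeR adjusted p = 3.40e-04). Cd163, the receptor for haptoglobin and hemoglobin, fell from 7.17, 5.25 and 7.83 to 0.958, 0.533 and 0.122 CPM and Colec12 from 31.2, 28.1 and 28.5 to 5.99, 4.27 and 4.82 CPM. The receptors of apoptotic cells and their bridge moved in opposite directions: Axl rose from 19.9, 22.6 and 20.4 to 169, 182 and 135 CPM and Mertk from 63.9, 47.3 and 77.1 to 177, 146 and 397 CPM, while Gas6, the ligand that links them to dying cells, fell from 909.7, 1084 and 1337 to 87.0, 142 and 51.6 CPM, a log2 change of -3.40 ± 0.44 (edgeR adjusted p = 4.16e-05). Msr1 and Cd36, receptors for modified lipoproteins, rose by 1.15 ± 0.19 and 1.28 ± 0.28. Of 13 complement genes 6 were higher and 2 lower, beside the same shares of all genes. C4b went from 0.287, 0.787 and 0.237 to 69.0, 93.8 and 49.4 CPM, a log2 change of 7.37 ± 0.35 (edgeR adjusted p = 4.33e-09). Cfb, of the alternative pathway, gave 2.37, 2.62 and 2.02 CPM and 93.1, 116 and 1150.4 CPM and C3 gave 114, 127 and 111 CPM and 475, 302 and 2824 CPM, both highest in IFN-γ 3, with log2 changes of 7.86 and 3.63 that were 5.58 and 1.85 without it (edgeR adjusted p = 5.63e-10 and 0.00167). C3 was not called in the blocked fit of the 6 libraries alone. C5ar1, the receptor for C5a, fell from 1646, 1640.1 and 1753 to 865, 775 and 319 CPM.

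Transcription factors of the NF-κB, AP-1 and BATF families were higher in 10 of 20 cases and lower in none. Batf2, a partner of IRF1, stood out with 3.01, 3.93 and 3.92 CPM in controls and 208, 283 and 168 CPM with IFN-γ, a log2 change of 6.10 ± 0.25 (edgeR adjusted p = 1.41e-09). Batf3 rose by 2.15 ± 0.28 at a level of 4.31, 4.13 and 3.05 CPM, Junb by 2.07 ± 0.42 and Nfkbiz, a nuclear regulator of NF-κB, by 1.33 ± 0.19.

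Of 21 genes tested that are used as markers of alternative activation, 6 were higher, 3 lower and 12 not called, shares near those of all genes (24.1% higher and 19.5% lower). Tgm2, a transglutaminase, went from 59.6, 62.7 and 61.0 to 2409, 2062 and 1911 CPM, a log2 change of 5.31 ± 0.32 (edgeR adjusted p = 3.75e-08), and Flt1, a receptor for vascular growth factor, from 0.215, 0.393 and 0.593 to 102, 79.9 and 16.5 CPM, a log2 change of 7.57 ± 0.65 (edgeR adjusted p = 1.19e-06). Il4ra, the IL-4 receptor chain, rose from 97.4, 89.0 and 128 to 278, 308 and 303 CPM. Mrc1 and Mgl2, a galactose lectin (11.3, 15.4 and 10.9 against 0.299, 0.356 and 2.13 CPM), fell. Retnla and Chil3, secreted markers of IL-4 responses, were at or below 12.0 CPM in all 6 libraries and were not called (edgeR adjusted p = 0.127 and 0.27), with Retnla counted with IFN-γ only in IFN-γ 3.

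A direct contrast with the IL-4 libraries, in which 50.6% of genes were called and which shares the IFN-γ samples with the comparison above, set these values on a scale. Arg1 was at 4124, 3747 and 3002 CPM with IL-4, and the log2 difference (IFN-γ minus IL-4) was -5.36 ± 0.46 (edgeR adjusted p = 5.13e-07). Flt1 was at 86.1, 88.0 and 70.3 CPM with IL-4 and the difference was smaller than its standard error (-0.27 ± 0.40, edgeR adjusted p = 0.594). Tgm2 was at 124, 101 and 121 CPM and Mrc1 at 2839, 2898 and 3086 CPM with IL-4, differences of 4.28 ± 0.30 and -4.44 ± 0.66. Cbr2, at 145, 345 and 219 CPM with IL-4, was lower with IFN-γ (-8.04 ± 0.80). Among genes of the IFN-γ pathway, Irf1 was at 63.0, 60.6 and 56.8 CPM and Nos2 at 0.0627, 0 and 0.0350 CPM with IL-4. Ciita and H2-Aa, at 22.8, 17.6 and 15.1 CPM and 209, 151 and 150.0 CPM with IL-4, were higher with IFN-γ by 3.65 ± 0.25 and 3.77 ± 0.36. Socs1 was at 24.2, 40.9 and 40.1 CPM with IL-4, and its difference of 0.80 ± 0.32 missed the threshold (edgeR adjusted p = 0.0533) and passed it with the date pairs as a block (edgeR adjusted p = 0.0162).

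Cholesterol synthesis fell as a whole. All 24 genes of the list were lower, where 19.5% of all genes were, with a median log2 change of -2.27, and all 24 remained lower in each of the 14 alternative settings. Their summed level was 4171, 3425 and 3792 CPM in control 1 to 3 and 1110, 709.8 and 447 CPM in IFN-γ 1 to 3, so the date pairs differed in size with IFN-γ 3 lowest. Hmgcs1, a synthase at the entry of the pathway, went from 298, 214 and 237 to 51.6, 34.0 and 28.8 CPM (log2 -2.53 ± 0.27, edgeR adjusted p = 7.41e-06). Fdft1 (squalene synthase) and Lss (lanosterol synthase) fell from 94.0, 87.5 and 90.7 to 17.2, 10.6 and 5.85 CPM and from 173, 126 and 160.0 to 32.1, 21.0 and 10.7 CPM. Sqle, the squalene epoxidase between them, which was chosen after its values were seen, fell from 212, 176 and 195 to 28.9, 14.9 and 6.16 CPM. Later steps moved in the same direction: Msmo1, Nsdhl, Hsd17b7 and Sc5d had log2 changes of -2.25, -1.93, -2.62 and -2.26.

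Related lipid genes were mixed, with 4 of 13 oxysterol, liver X receptor (LXR) and efflux genes higher and 5 lower. Over all genes 24.1% were higher and 19.5% lower. Ch25h, which makes 25-hydroxycholesterol, an inhibitor of the pathway above, gave 7.53, 10.4 and 8.66 CPM in controls and 136, 169 and 4.33 CPM with IFN-γ. It was called (log2 3.66 ± 0.82, edgeR adjusted p = 0.00291), but IFN-γ 3 lay below the controls, and without that library the log2 change was 4.22 (edgeR adjusted p = 1.54e-07). The call was lost with the 6 libraries alone and the date pairs as a block (log2 2.95, edgeR adjusted p = 0.122). The summed cholesterol genes were lowest in that same library, and a relation between the 2 was not tested. Fasn, the fatty acid synthase, and Scd2, a desaturase, fell from 231, 157 and 184 to 97.2, 42.8 and 15.9 CPM and from 1595, 1375 and 1381 to 653, 502 and 37.6 CPM (edgeR adjusted p = 0.0142 and 0.0289), and both calls failed with the 6 libraries fitted alone, that of Scd2 also with the block there and without any 1 of the controls. Abcg1, a cholesterol exporter, rose from 71.7, 115 and 85.1 to 238, 362 and 201 CPM, while Abca1, another exporter, was not called (0.53 ± 0.28) except with the 6 libraries alone and the block (0.495, edgeR adjusted p = 0.0472).

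**Figure D4:**
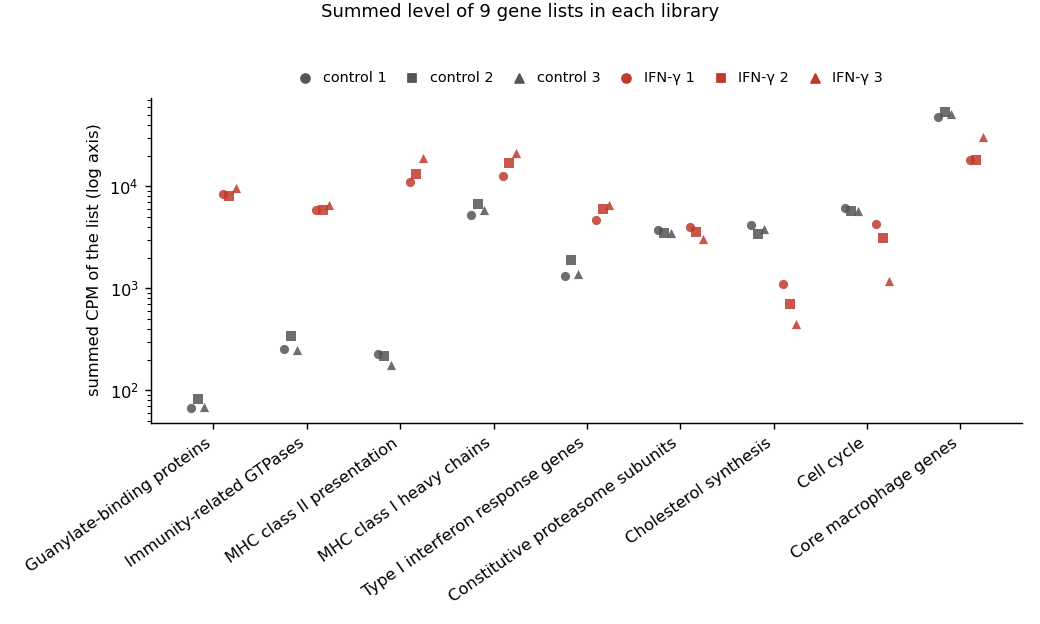
Summed CPM (log axis) of the members of 9 gene lists in each library; grey marks are controls, red marks IFN-γ, shapes give the replicate number. Guanylate-binding proteins rose from at most 82.4 to at least 8052 CPM, while cholesterol synthesis and cell cycle genes fell furthest in IFN-γ 3.

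In glycolysis 9 of 16 genes were higher and 0 lower (7 and 1 with upper-quartile factors). Hk3, a hexokinase of myeloid cells, went from 309, 331 and 344 to 1467, 2005 and 1406 CPM, a log2 change of 2.49 ± 0.12 (edgeR adjusted p = 4.98e-09), and Pfkfb3, which makes the activator of phosphofructokinase, from 36.5, 32.7 and 43.9 to 253, 257 and 331 CPM, a log2 change of 3.10 ± 0.20 (edgeR adjusted p = 8.97e-08). Hk1, Hk2, the glucose transporter Slc2a1 and the hypoxia factor Hif1a rose by 1.23, 1.57, 1.04 and 1.20. In the tricarboxylic acid cycle and respiratory chain 7 of 24 were higher and 5 lower, beside 24.1% higher and 19.5% lower of all genes. With upper-quartile factors 3 were higher and 7 lower, and without IFN-γ 3 the numbers were 3 and 4. Idh1 and Idh2, isocitrate dehydrogenases, went from 336, 344 and 364 to 166, 114 and 139 CPM and from 109, 94.6 and 109 to 48.2, 43.2 and 27.1 CPM.

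Cell cycle genes were lower in 20 of 30 cases and higher in none (median -1.41). Their summed level was 5682 to 6062 CPM in controls and 4257, 3109 and 1178 CPM in IFN-γ 1 to 3. Mcm6, a subunit of the replication helicase, went from 289, 285 and 279.8 to 142, 79.3 and 28.1 CPM, a log2 change of -1.63 ± 0.36 (edgeR adjusted p = 0.00284), and Cdk1, the mitotic kinase, from 181, 166 and 169 to 95.2, 52.1 and 18.7 CPM, a log2 change of -1.49 ± 0.39 (edgeR adjusted p = 0.00834), the latter not called with the 6 libraries alone. The 3 treated cultures differed widely, and 14 of the 30 genes were at least 4-fold lower in IFN-γ 3 than in both others. Mki67, the proliferation marker, gave 413, 262 and 274 CPM and 224, 62.3 and 16.5 CPM and missed the threshold (log2 -1.51 ± 0.64, edgeR adjusted p = 0.0704), passing it with the date pairs as a block (edgeR adjusted p = 0.0068). Myc went from 47.9, 42.9 and 59.7 to 26.9, 20.9 and 0.976 CPM and missed it too (edgeR adjusted p = 0.0515, and 0.00124 without IFN-γ 3), as did Ccnd1, cyclin D1 (799, 771 and 95.7 against 954, 1019 and 1104 CPM, edgeR adjusted p = 0.246). Without IFN-γ 3, 21 were lower, and with the 6 libraries fitted alone 4 were.

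In the lysosome, 5 of 18 genes were higher and 3 lower, shares near those of all genes (24.1% higher and 19.5% lower). Ctsh and Ctsc, an aminopeptidase and the activator of granule proteases, rose from 66.3, 61.6 and 64.7 to 762, 944 and 1229.6 CPM and from 519.6, 429.9 and 485 to 4091, 3557 and 3168 CPM, while Ctsd and Ctsl, endopeptidases, were lower, with log2 changes of -0.78 ± 0.21 and -0.48 ± 0.14. Of 15 genes of iron handling and oxidative stress 4 were higher and 1 lower, and the share higher was near that of all genes. The number higher was 2 without IFN-γ 3, 2 with the block in the 15-library fit and 1 with the 6 libraries alone. Over all alternative settings it ran from 1 to 6. Spic and Slc7a11, both called higher, stood highest in IFN-γ 3 (1.62, 0.311 and 13.0 CPM and 16.7, 3.02 and 68.2 CPM in IFN-γ 1 to 3). Their controls were at 1.29, 0.393 and 0.712 CPM and at 7.61, 3.15 and 5.34 CPM. For both genes IFN-γ 2 lay below every control, so the groups overlapped. Tfrc, the transferrin receptor, fell from 288, 174 and 267 to 104, 59.3 and 61.3 CPM (log2 -1.51 ± 0.25, edgeR adjusted p = 3.28e-04), and Slc11a1, the phagosomal metal exporter Nramp1, rose from 327, 349 and 378 to 708, 774 and 1151 CPM. Hmox1, heme oxygenase, and Slc40a1, the iron exporter, gave 1088.5, 729 and 1316 CPM and 386, 163 and 361 CPM with IFN-γ against 1047, 674 and 1153 CPM and 269, 125 and 322 CPM, and were not called. Slc40a1 was higher in all 3 date pairs and passed with the 6 libraries alone and the block (log2 0.51, edgeR adjusted p = 0.0216).

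The cells of both groups expressed macrophage genes. Csf1r (the M-CSF receptor), Adgre1 (F4/80) and Itgam (CD11b) were at 955 CPM or more in all 6 libraries and were not called (log2 0.38, 0.03 and -0.12). Adgre1 depended on IFN-γ 3: with 1459, 1494 and 1586.5 CPM in controls and 986, 955 and 2018 CPM with IFN-γ, it was lower without that library (log2 -0.51, edgeR adjusted p = 0.0205). Lyz2, lysozyme, fell from 30211, 34351 and 30628 to 7565, 6905 and 15244 CPM, a log2 change of -1.45 ± 0.31 (edgeR adjusted p = 0.00233). Cx3cr1, the fractalkine receptor, fell from 28.6, 42.8 and 22.3 to 5.21, 1.69 and 2.81 CPM, and Maf, a transcription factor of macrophages, was lower (log2 -1.09 ± 0.35, edgeR adjusted p = 0.0218, and 0.0653 without IFN-γ 3, the call also failing without control 3). Of 14 core macrophage genes 3 were higher and 6 lower, beside 24.1% higher and 19.5% lower of all genes. In a list of monocyte and M-CSF response markers, which includes Csf1r, 5 of 8 tested were higher and 0 lower, beside the same shares. Ly6c2 went from 1.51, 0.459 and 0.475 to 18.5, 12.6 and 39.2 CPM and Plac8 from 0.287, 0 and 0.237 to 103, 97.0 and 13.8 CPM. Ccr2, of the same list, was not called, at 16.1, 38.2 and 12.2 CPM in controls and 76.3, 75.8 and 11.8 CPM with IFN-γ.

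Some defining markers of other marrow cells were at or near 0 and others were not. Of 13 T and NK cell markers, Cd3d, Cd3e, Cd8a, Gzma, Gzmb, Ncr1 and Ifng had 0 counts in all 6 libraries, which allows up to 0.0798 CPM in the control group and 0.054 CPM in the IFN-γ group. The list's summed level of 58.5 to 82.6 CPM in controls and 69.1 to 189 CPM with IFN-γ was mostly Il7r (55.4, 75.9 and 52.7 and 67.9, 84.6 and 185 CPM), which was not called. Of 6 B cell markers, Ms4a1 and Pax5 were at 0, and Ighm, the μ heavy chain, went from 252, 232 and 253 to 46.2, 24.7 and 1.52 CPM (log2 -3.21 ± 0.70, edgeR adjusted p = 0.0025). The 7 erythroid markers summed to at most 0.356 CPM and the 5 mast cell and basophil markers to at most 0.475 CPM in any of the 6 libraries. The 10 neutrophil markers summed to 5.64 to 38.2 CPM in controls and 2.53 to 40.9 CPM with IFN-γ, with none called. Of 9 dendritic cell markers 4 were tested, with 1 higher, 1 lower, 2 not called and a median log2 change of -0.49. The summed level of all 9 was 12.0 to 17.6 CPM in controls and 30.6 to 66.7 CPM with IFN-γ. Clec9a, the 1 called higher, made up most of the treated sum, at 41.3, 50.6 and 23.1 CPM. Cd209a, at most 1.00 CPM in any library, was lower (edgeR adjusted p = 0.0356), a call that failed without control 1, control 3, IFN-γ 1 or IFN-γ 3. Flt3 had no library above 0.299 CPM. Pf4, platelet factor 4, fell from 274, 139.8 and 239 to 34.2, 34.5 and 11.5 CPM, while Gp9 of the same platelet list was at 0 throughout. Of 8 stromal and endothelial markers, Pecam1 rose to 8.50, 14.5 and 5.92 CPM from 0.574, 0.262 and 0.593 CPM, Cdh5 and Kdr fell (the call of Kdr failed without control 2, IFN-γ 1 or IFN-γ 3, edgeR adjusted p = 0.0882, 0.0546 and 0.0514), and Col3a1 was at 0. The part of other cells in the results above was not tested.

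The genes that set IFN-γ 3 apart were of several kinds, and Thbs1, Ccl7 and Ccnd2 were chosen after their values were seen. Above the other 2 treated cultures were Ccl5, Cfb and C3 (above) and Thbs1, the matrix protein thrombospondin 1, at 37.8, 66.4 and 821 CPM against 3.23, 3.02 and 3.32 CPM in controls (log2 6.89, and 4.17 without IFN-γ 3, edgeR adjusted p = 5.64e-05). Below them were Ccl2 and its neighbour Ccl7 (559.6, 580.0 and 17.3 CPM, against 286, 201 and 282 CPM in controls), Ch25h, Ccnd2, cyclin D2 (277, 268 and 14.3 CPM, against 30.6, 28.0 and 47.2 CPM, with a call that failed in 5 of the 14 alternative settings) and 14 of the 30 cell cycle genes, Myc among them. For Ccl2, Ccl7 and Ccnd2, IFN-γ 1 and 2 lay above every control and IFN-γ 3 below. By contrast, the relay, feedback, IRF, GTPase, class I, immunoproteasome, type I interferon, PYHIN and inflammasome lists had no member 4-fold apart in IFN-γ 3 from both others after TMM scaling. This covers members with a mean of 1 CPM or more in either group. On unscaled CPM, Irf4 was more than 4-fold lower in IFN-γ 3 than in both others. The date prefix of the columns was different for each of the 3 numbers and what it marks is not given, so a cause of this difference was not tested.

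**Figure D5:**
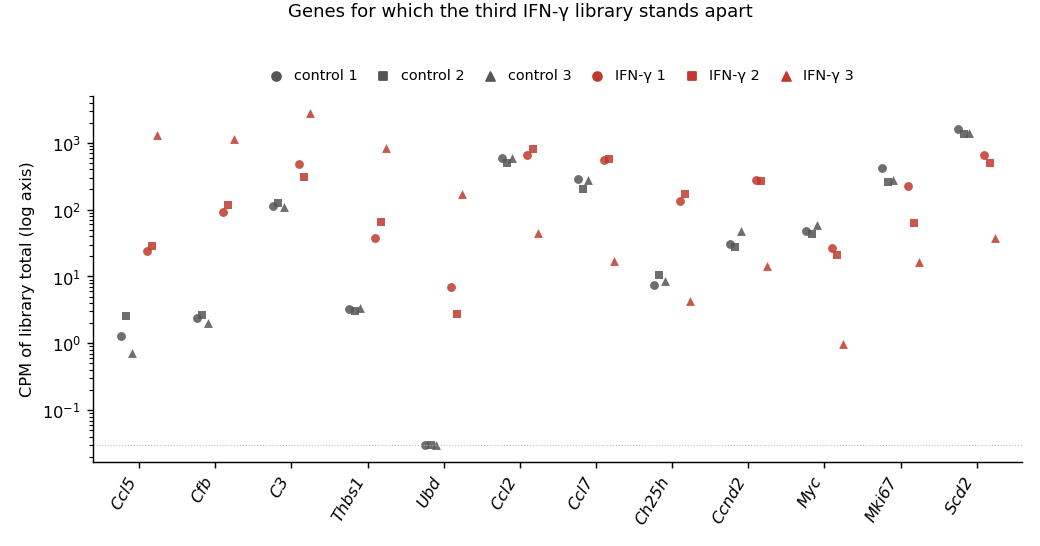
CPM (log axis) in each of the 6 libraries for 12 genes named in the text, grey for controls and red for IFN-γ, with values of 0 on the dotted line at 0.03 CPM. The red triangle, IFN-γ 3, lies above the other red marks for Ccl5, Cfb, C3, Thbs1 and Ubd and below them for the other 7 genes, as for Ccl2 at 45.3 CPM against 661 and 800 CPM.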

How the data were processed

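RNA from BMDM cultures was extracted with RNeasy Micro columns and DNase treatment and made into TruSeq stranded libraries, per the labels' protocols. The authors deposited a table of raw read counts per gene, and the submitters' processing notes name STAR 2.7.0e, SAMtools 1.9, featureCounts and build GRCm38.p5. No source used here gives the strand setting, so reads of overlapping or antisense genes cannot be told apart, and reads of near-identical copies may be divided arbitrarily.

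Of 25700 gene identifiers, 25664 matched a symbol, and 11883 genes passed the count filter of edgeR by group. Counts were fitted with edgeR 4.0.16 (R 4.3.3; quasi-likelihood test, TMM factors) over all 15 libraries, so that 5 groups shared the estimate of spread, and p-values were adjusted by Benjamini-Hochberg over all genes tested at 0.05. No replicate block was used. The column names carry a date shared by same-numbered libraries, and what it marks is not given; the deviations of IFN-γ and control libraries of 1 number correlated at 0.26, 0.203 and 0.0561. DESeq2 1.42.0, other scalings, other filters, the 6 libraries alone, replicate blocks and leaving out each of the 6 libraries were tried. The code was tested on simulated data.

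The text names the 15 largest rises and falls without overlap at a mean of at least 1 CPM, the 10 most abundant rises, members of short lists, the 8 members of smallest p in longer lists, and some members chosen by name. Some genes that these rules name are not reported here. Members and lists were chosen with earlier results of these data known. Total counts set the precision, and counting intervals and floors cover counting error only.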

Additional observations from a re-analysis of the deposited data

How the results depend on the processing

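Of 14 alternative settings, none turned a called gene into a call in the other direction. The genes higher numbered 2866 and ranged from 1942 (only the 6 libraries) to 3074 (without IFN-γ 1), and the genes lower numbered 2323 and ranged from 1571 (only the 6 libraries) to 3036 (upper-quartile factors). Leaving out 1 library gave 2232 to 3074 higher and 1792 to 2526 lower. With the replicate block in the fit of 15 libraries 3020 were higher and 2512 lower, of which 2821 and 2289 were called the same way without it. With the block and the 6 libraries alone the counts were 2017 and 1686. Among 230 named genes followed one by one, the block in the 15-library fit changed the call against controls of Mki67 alone. In the iron handling list, whose named members were not all followed, 2 genes were higher with that block and 4 without it. Against IL-4 the block changed the call of Socs1 alone among the genes compared with IL-4 in the text. Of the 230 genes followed, 201 kept their call and direction in every alternative run. Not every gene named was among them: Socs2, Pias1 and Cd209a, with calls that failed in several settings, were not followed.

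Among genes that were not called, several changed sign. With upper-quartile factors the log2 change was -0.0168 for Ifngr2 and -0.0933 for Adgre1. Adgre1 was at -0.0124 with the 6 libraries alone, -0.0611 with the replicate block and -0.1387 with the block and the 6 libraries alone. Over the fits that left out 1 library, the log2 change ran from -0.2372 to 0.2557 for Ifngr2, from -0.5428 to 0.5069 for Ccl2, from -1.9624 to 7.1161 for Retnla, from -0.5311 to 2.4493 for Chil3, from -0.1208 to 0.5815 for Csf1r and from -0.5144 to 0.2418 for Adgre1. Without IFN-γ 3, those of Ifngr2, Retnla, Chil3, Csf1r and Adgre1 were negative and that of Ccl2 positive (as without control 3, 0.0103), the other sign from the fit of all libraries, and the cause was not tested. Cell cycle genes gave 4 to 25 lower of 30 over the alternatives, with 4 in the fit of the 6 libraries alone. That fit took the spread from fewer libraries, and the cause of its smaller number of calls was not tested. Genes under a few CPM, such as Retnla and Ido1, rest on few counts.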
